A study of Rattus norvegicus with 25 samples.

Results

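The comparison described here set the striatum of rats exposed to nicotine before birth (Nic, 7 arrays) against that of rats whose dams had been held to the same reduced food intake without nicotine (Con-Pf, 10 arrays). It took the arrays whose titles name gestational nicotine or the control group matched for food, 17 of the 25 arrays of the series, and covered every gene on the array. All animals were male Lister Hooded rats killed between post-natal day (PND) 35 and 42. Nic dams drank a nicotine bitartrate solution as their fluid from before mating and through pregnancy, with brief access to tap water on days of low intake. Con-Pf dams drank tap water freely, and their daily ration was set by what a Nic dam paired with them had consumed on the preceding day. Both groups therefore shared a reduced maternal food intake. They differed in the nicotine and in the way the reduction came about (imposed or accompanying nicotine). They also differed in the fluid, of which Nic dams drank less than Con-Pf dams by the study's figures. Mean daily food intake in pregnancy was somewhat lower in Nic than in Con-Pf dams, a difference the study does not mark as significant. A free-fed, untreated group (Con, 8 arrays) is used as a reference level. The offspring were littermates of animals used for behavioural work, and the labels do not tie arrays to litters. The study lists fewer Con-Pf dams than Con-Pf animals for the arrays, so some of these animals shared a dam. The p-values measure the spread between these arrays and are too small as far as animals of 1 dam resemble each other. The question was which striatal genes differ in adolescence between nicotine-exposed offspring and offspring of dams rationed to match the intake of nicotine dams.

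Most of the genes that differed stood in lists of the activity-induced programme of neurons, compiled with earlier results of these arrays known. When synaptic input raises calcium and cyclic AMP in a striatal neuron, kinases activate the transcription factors CREB and SRF, which are already present, and these switch on immediate early genes without new protein synthesis. The immediate early genes encode transcription factors of the AP-1, EGR and NR4A families, effectors that act at synapses such as Arc, and phosphatases that shut the MAP kinase signal down again. In the striatum this programme responds to dopamine, to glutamate, to novelty and to handling, and its mRNAs rise and decay quickly. Nicotine acts on nicotinic acetylcholine receptors, which in the striatum lie largely on the terminals of dopamine neurons.

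Each array gives 1 level per probe set, the summary of a set of short probes, on a log2 scale, so that a difference of 1 is a doubling. Between any pair of the 17 arrays the correlation over the probe sets tested ran from 0.984 to 0.997 (median 0.992). The tissue label was borne out by the markers of medium spiny neurons, the main neurons of the striatum. Of 17 listed, 14 have a probe set, and all 14 passed the filter on low values. Among them were Ppp1r1b (12.78 to 12.93 in Nic, 12.79 to 12.97 in Con-Pf) and Drd2 (12.38 to 12.58 in Nic, 12.39 to 12.58 in Con-Pf). Con-Pf replicates 9 and 10 carry a title and source of Con-Pf but a description of a control, and a passage of the study's methods gives the sizes of Con and Con-Pf the other way round from the labels, while the numbers of arrays it started with and removed give the sizes of the labels. They were kept as Con-Pf, and the counts below are also given without them and with them counted as Con. Markers of cortical and thalamic excitatory neurons differed between arrays. Of 15 listed, 9 are in the table and 4 passed the filter. Their mean level ran from 7.63 to 9.03 in Nic, from 7.57 to 8.10 in Con-Pf and from 7.78 to 8.57 in Con, and was highest on Nic 2 (9.03) and Nic 7 (8.77). A level above 0 is no sign of expression on this scale. Neurod1, a listed marker that did not pass the filter, ranged from 4.36 to 5.04 in Nic. Its difference, Nic minus Con-Pf, was -0.022 on the log2 scale. The other listed markers below the filter were higher in Nic, Neurod6 by 0.51, Neurod2 by 0.28, Slc17a6 by 0.24 and Rspo2 by 0.083. With the filter left off none of these passed an adjusted p of 0.05.

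Of 14607 probe sets tested, 27 differed between Nic and Con-Pf at an adjusted p under 0.05 (0.185%, limma with Benjamini-Hochberg adjustment). Levels were lower in Nic for 25 of them (0.171% of those tested) and higher in Nic for 2 (0.0137%). Of the 27, 18 belong to 6 lists of activity-induced genes, 3 to the circadian clock and 6 to neither. The largest falls were those of Fos (-0.98 on the log2 scale), Nr4a1 (-0.97), Egr2 (-0.92) and Arc (-0.85). Here and below a fall or a rise is the level in Nic relative to Con-Pf. For 25 of the 27 the mean of Con lay beyond that of Nic, on the side away from Con-Pf. None of the 27 was called in Nic minus Con, and 25 were called in Con-Pf minus Con. As the 3 comparisons share arrays, these counts are set side by side only. The rises were small, 0.24 for the clock repressor gene Nr1d2 and 0.21 for an unnamed probe set. Over all probe sets tested the median difference was 0.0082, 55.9% were higher in Nic, and the 5% and 95% quantiles were -0.10 and 0.10. Before adjustment 637 probe sets had a p under 0.05 (4.36%), 266 of them lower and 371 higher in Nic. With each array centred on its median, 75.3% of the probe sets past that threshold were higher in Nic, against 58.2% in the values as deposited, and 46.9% with no filter. The arrays of the groups did not overlap at all for 12 probe sets (0.0822%), in 10 of which every Nic array lay below every Con-Pf array (0.0685%). Of the 27 called probe sets 7 were of this kind, and 20 overlapped on at least 1 array.

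**Figure D1:**
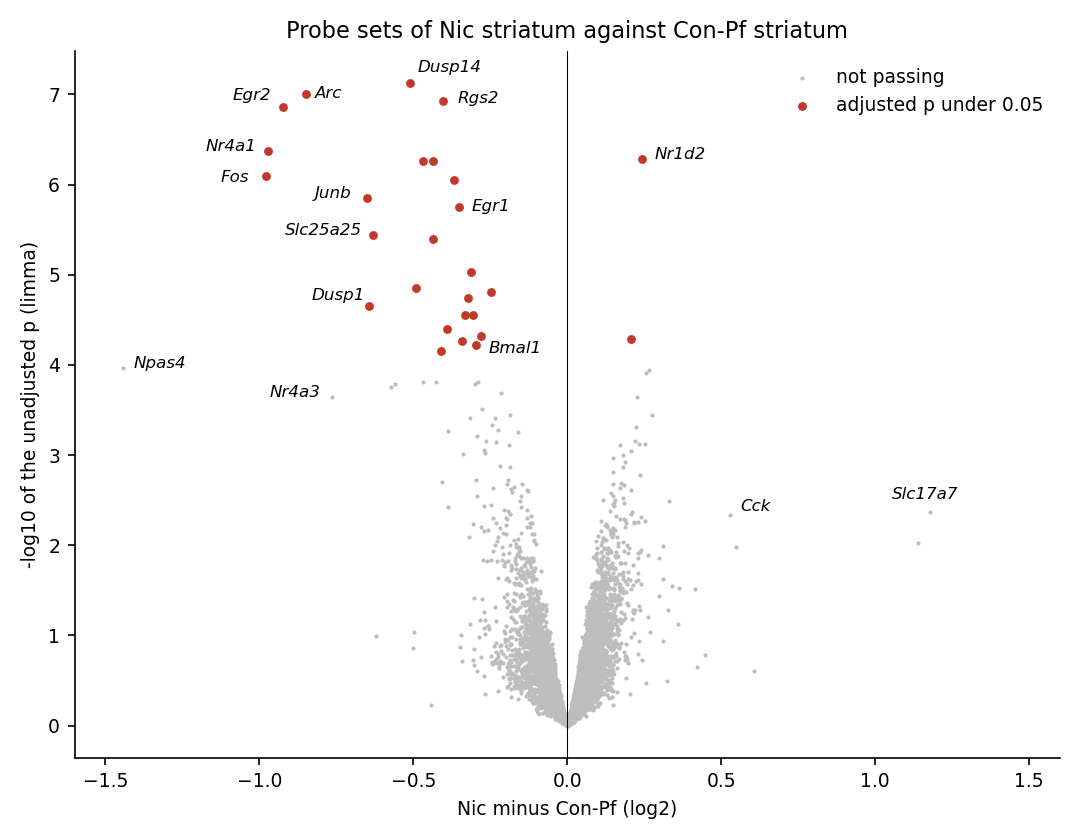
Each point is 1 of the 14607 probe sets, with the difference in level (Nic minus Con-Pf, log2) on the horizontal axis and -log10 of the unadjusted limma p on the vertical axis. The 27 red points pass an adjusted p of 0.05, and 25 of them lie to the left of 0, the furthest being Fos (-0.98), whereas the widest points on the right, Slc17a7 and an unnamed probe set, do not pass.

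The count of 27 rested on the test, on how Con-Pf 9 and 10 were treated and on the cortical markers. By the methods' t-test without pooling the variances 6 probe sets were called. The 5 of the 27 kept were Dusp14, Egr2, Nr1d2, Cited2 and Egr1. Among the calls lost by this t-test were those of Fos (adjusted p = 0.051), Arc (0.051), Junb (0.054) and Nr4a1 (0.20). Without Con-Pf 9 and 10, 24 probe sets were called, 22 of them among the 27. The calls lost were those of Dusp4, Pvr, Trib1 (0.056) and the unnamed 10706509 (0.10) and 10789653 (0.12). With both counted as Con 5 were called, namely Fos, Junb, Arc, Dusp1 and Rsrp1. The differences themselves changed little: that of Fos was -1.09 and that of Egr2 -0.89 in both of these fits. Both fits compare the same Nic and Con-Pf arrays and differ only in the spread. In the second, Con-Pf 9 and 10 add to the spread within Con. The mean level of the 25 probe sets lower in Nic was 9.48 on Con-Pf 9 and 9.56 on Con-Pf 10, against 9.25 to 9.71 over all Con-Pf arrays, 8.86 to 9.19 in Nic and 8.79 to 9.01 in Con. These probe sets were called with both arrays counted as Con-Pf, so their levels cannot decide the group of either array. With the level of the cortical markers as a covariate 9 of the 27 were called, namely Dusp14, Arc, Rgs2, Egr2, Nr4a1, Nr1d2, Dusp5, Gpr3 and Fos, and the difference of Fos stayed at -0.98. Some genes that lost the call had differences close to the main ones, with -0.61 for Junb, -0.63 for Slc25a25, -0.32 for Egr1 and -0.67 for Dusp1. Others shrank more, such as Egr4 (-0.42 against -0.49), Bmal1 (-0.25 against -0.30) and Pdp1 (-0.20 against -0.25). Others again grew, such as Nfil3 (-0.35 against -0.31). Of the 27, 16 passed with each of the 25 arrays left out in turn. The 11 that did not are named with their genes below.

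The AP-1 factors, which pair as Fos and Jun proteins on DNA, held the largest difference among the factors called. Fos ranged from 6.94 to 7.70 in Nic (median 7.27) and from 7.60 to 8.96 in Con-Pf (median 8.25). The groups overlapped only through Nic 1 (7.70) and Con-Pf 7 (7.60), the highest Nic and the lowest Con-Pf array. Fos fell by 0.98 ± 0.15 (SE) on the log2 scale, that is, it was 1.97-fold higher in Con-Pf (adjusted p = 0.0013, limma). In Con it ranged from 6.82 to 7.45, and Nic minus Con was 0.10 (adjusted p = 0.76, limma) where Con-Pf minus Con was 1.08 (adjusted p = 6.05e-05, limma). These comparisons share arrays with each other, so their values are set side by side only. Junb, a Jun family member that tempers AP-1 activity, ranged from 8.75 to 9.31 in Nic (median 9.03) and from 9.15 to 9.99 in Con-Pf (median 9.70). It fell by 0.65 ± 0.11 (SE), or 1.57-fold (adjusted p = 0.0019, limma). Con-Pf 7 (9.15) was again the lowest Con-Pf array, and Nic 1 (9.31) and Nic 5 (9.17) lay above it. Fosl2, which encodes the longer-lived Fra-2, is the symbol the probe annotation gives to both 10940628 and 10940647. The study names the first of these Fosb, through the accession that the annotation also carries for it, and the second Fosl2, so the gene behind 10940628 is uncertain. Neither passed, with differences of -0.57 (10940628; adjusted p = 0.070, limma) and -0.56 (10940647; adjusted p = 0.069, limma). The first passed without Con-Pf 3 (0.017), Con-Pf 4 (0.033) or Con-Pf 7 (0.013). Jun (-0.065) and Jund (0.0044) showed no difference that passed. Of the 5 AP-1 genes measured 2 fell and 3 did not pass, with a median of -0.57. A further probe set that the study names Fosb has no symbol in the annotation used here and had a difference of -0.43 (adjusted p = 0.069, limma).

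**Figure D2:**
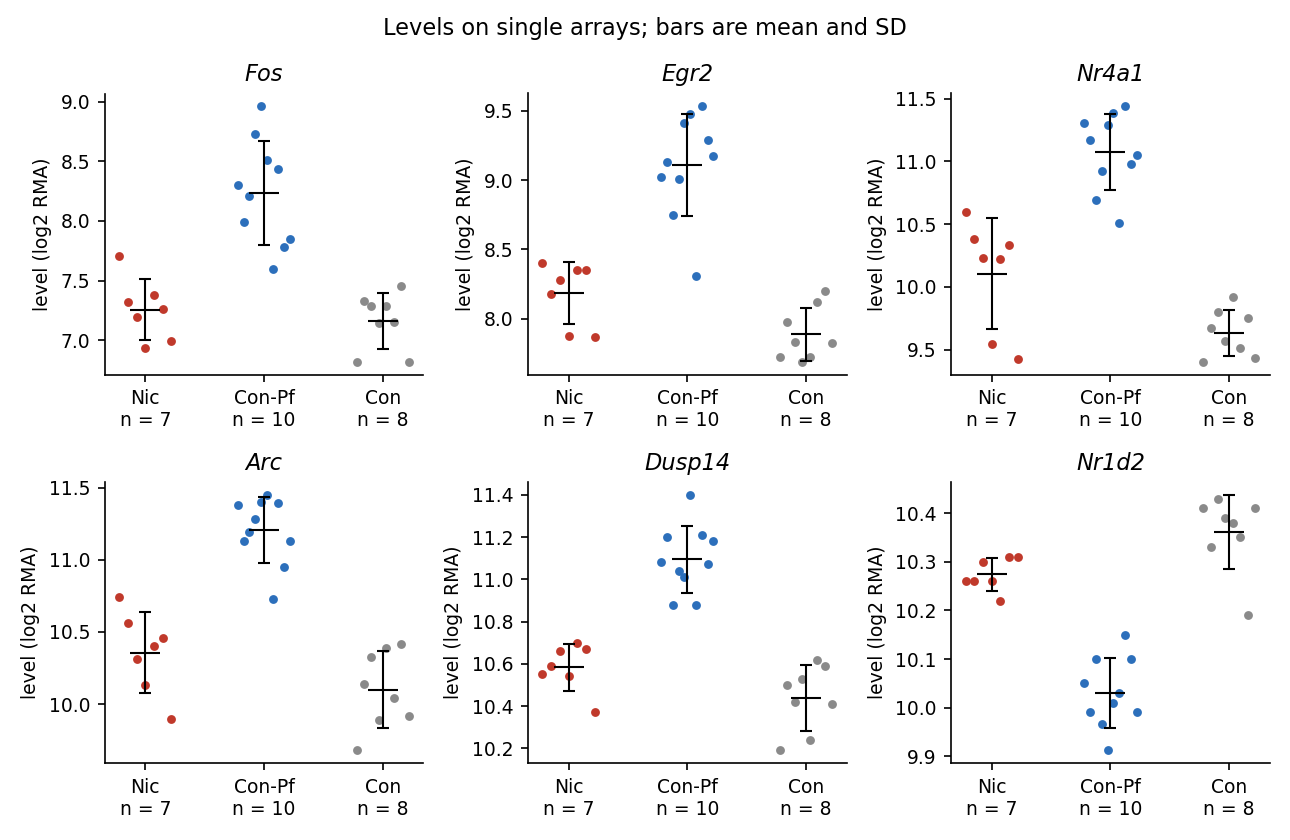
Levels (log2 RMA) of 6 genes on every array, with Nic in red (7 arrays), Con-Pf in blue (10) and Con in grey (8), and with bars for the mean and SD of each group. Fos, Egr2, Nr4a1, Arc and Dusp14 were lower in Nic than in Con-Pf, with overlap for all but Dusp14, and Nr1d2 was higher on every Nic array (lowest 10.22) than on every Con-Pf array (highest 10.15).

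The NR4A genes encode orphan nuclear receptors that act without a known ligand and are induced by cyclic AMP. Nr4a1 ranged from 9.43 to 10.60 in Nic (median 10.23) and from 10.51 to 11.44 in Con-Pf (median 11.11). Its spread was widest in Nic, where Nic 4 (9.55) and Nic 7 (9.43) were low and Nic 1 (10.60) reached into the Con-Pf range. It fell by 0.97 ± 0.15 (SE), or 1.96-fold (adjusted p = 0.0010, limma). In Con it ranged from 9.40 to 9.92, and Nic minus Con was 0.47 (adjusted p = 0.27, limma) where Con-Pf minus Con was 1.44 (adjusted p = 4.16e-07, limma). Nr4a3 had a difference of -0.76 that did not pass (adjusted p = 0.085, limma); it passed without Con-Pf 3 (0.020), Con-Pf 4 (0.036) or Con-Pf 7 (0.015). Nr4a2, known for its role in dopamine neurons, lay on the other side, at 0.36 ± 0.19 (SE), and did not pass (adjusted p = 0.999, limma). Its Nic arrays ranged from 7.08 to 8.19 and its Con-Pf arrays from 7.03 to 7.63. Of the 3 genes 1 fell and 2 did not pass, and the members of this family did not share a direction.

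Among the EGR zinc finger factors 3 of 4 fell, with a median of -0.42 over the family. Egr2 ranged from 7.87 to 8.40 in Nic (median 8.28) and from 8.31 to 9.53 in Con-Pf (median 9.15). All Con-Pf arrays but Con-Pf 7 (8.31) lay above every Nic array. It fell by 0.92 ± 0.13 (SE), or 1.90-fold (adjusted p = 0.00050, limma). Egr1, the most studied member and a common marker of neuronal activity, ranged from 12.10 to 12.24 in Nic (median 12.20) and from 12.30 to 12.69 in Con-Pf (median 12.55). The groups did not overlap, and within Nic the arrays spanned less than in Con-Pf. Egr1 fell by 0.35 ± 0.058 (SE), or 1.28-fold (adjusted p = 0.0021, limma). Its level in Con ran from 11.77 to 12.17, with a Nic minus Con of 0.20 (adjusted p = 0.27, limma) and a Con-Pf minus Con of 0.55 (adjusted p = 4.66e-07, limma). Egr4 fell by 0.49 (adjusted p = 0.013, limma), a call lost without Nic 7 (0.051). Egr3 had a difference of -0.12 that did not pass.

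The other activity-induced regulators were more mixed. Of 12 measured genes 2 fell, none rose and 10 did not pass, and the median was -0.14. Cited2, a co-regulator that competes for the coactivators CBP and p300, ranged from 9.91 to 10.22 in Nic and from 10.31 to 10.61 in Con-Pf with no overlap. It fell by 0.37 (adjusted p = 0.0013, limma). Trib1, a pseudokinase that steers proteins to degradation, fell by 0.41 (adjusted p = 0.038, limma), but that call was lost without any 1 of 13 arrays, at an adjusted p of up to 0.17. These were Nic 2, 3, 4, 5 and 7, Con 6 and 7, and Con-Pf 1, 2, 5, 6, 8 and 10. Npas4, a factor induced by calcium entry alone and among the most activity-specific genes of neurons, had the widest difference of any probe set tested and did not pass. It ranged from 7.75 to 9.60 in Nic (median 8.30), from 9.25 to 10.86 in Con-Pf (median 9.86) and from 7.38 to 10.01 in Con. The difference was -1.44 ± 0.32 (SE), or 2.72-fold (adjusted p = 0.056, limma). Nic 1 (9.60) and Nic 4 (9.48) lay among the Con-Pf arrays and the other 5 Nic arrays below them all, and it passed without Nic 1 (0.020), Nic 4 (0.029), Con 2 (0.033), Con 8 (0.027) or Con-Pf 7 (0.033). It also passed in limma on Nic and Con-Pf alone (0.030), with array weights (0.0097) and with the first principal component as covariate (0.043). Klf4, a Krüppel-like factor, had a difference of -0.29 (adjusted p = 0.069, limma) and passed without Con 2 (0.047), Con-Pf 3 (0.046), Con-Pf 7 (0.031) or Con-Pf 9 (0.048).

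The effector list holds genes of the programme that do not encode transcription factors. Of 20 measured 6 fell, none rose and 14 did not pass, with a median of -0.14. Arc, whose protein removes AMPA receptors from active synapses, ranged from 9.89 to 10.74 in Nic (median 10.40) and from 10.73 to 11.45 in Con-Pf (median 11.23). Only Nic 1 (10.74) reached the lowest Con-Pf array, Con-Pf 7 (10.73). Arc fell by 0.85 ± 0.12 (SE), or 1.80-fold (adjusted p = 0.00050, limma). Con arrays ran from 9.68 to 10.42, with a Nic minus Con of 0.25 (adjusted p = 0.31, limma) and a Con-Pf minus Con of 1.101 (adjusted p = 4.66e-07, limma). Rgs2, which speeds the shutdown of G protein signals, ranged from 10.36 to 10.76 in Nic and from 10.80 to 11.20 in Con-Pf. Its groups did not overlap, and it fell by 0.40 (adjusted p = 0.00050, limma). Gpr3, a receptor that raises cyclic AMP without a ligand, fell by 0.47 (adjusted p = 0.0010, limma), and Slc25a25, a mitochondrial carrier of adenine nucleotides, fell by 0.63 (adjusted p = 0.0040, limma). Rasl11a, a small GTPase, fell by 0.43 (adjusted p = 0.0042, limma). Ptgs2, the inducible cyclooxygenase of prostaglandin synthesis, fell by 0.32 (adjusted p = 0.015, limma).

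Genes that feed back on the MAP kinases encode the dual-specificity phosphatases, which inactivate the kinases, and the Sprouty and Spred proteins, which act upstream. Of 16 measured 4 fell, none rose and 12 did not pass, with a median of -0.10. Dusp14 had the smallest p of all probe sets. It ranged from 10.37 to 10.70 in Nic (median 10.59), from 10.88 to 11.40 in Con-Pf (median 11.08) and from 10.19 to 10.62 in Con. No Nic array reached a Con-Pf array, and the fall was 0.51 ± 0.070 (SE), or 1.43-fold (adjusted p = 0.00050, limma). Nic minus Con was 0.14 (adjusted p = 0.32, limma) and Con-Pf minus Con 0.66 (adjusted p = 4.66e-07, limma). Dusp5, a nuclear phosphatase of ERK, fell by 0.43 (adjusted p = 0.0010, limma). Dusp1 fell by 0.64 (adjusted p = 0.017, limma), a call lost without Nic 3 (0.056), Nic 5 (0.062) or Nic 7 (0.070). Dusp4 fell by 0.39 (adjusted p = 0.027, limma), and its call was lost without any 1 of 9 arrays (Nic 3, 4, 5 and 7 and Con-Pf 2, 6, 8, 9 and 10), at an adjusted p of up to 0.11, and without Con-Pf 9 and 10 together (0.10). Dusp6, the cytoplasmic ERK phosphatase, had a difference of -0.47 (adjusted p = 0.069, limma) and Spry4 one of -0.30 (adjusted p = 0.069, limma). The remaining members lay between -0.17 (Spry2) and 0.074 (Dusp10).

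**Figure D3:**
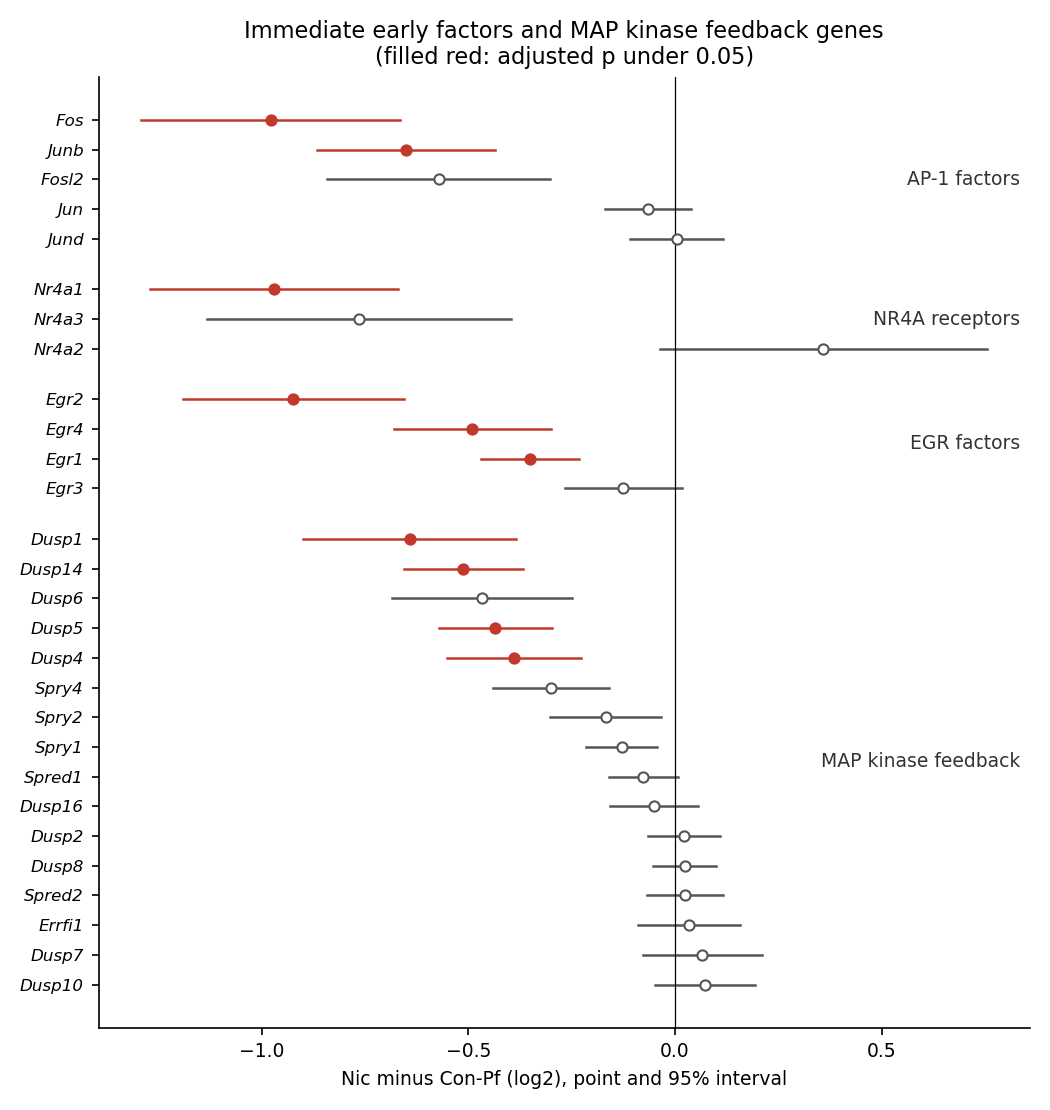
Difference between Nic and Con-Pf (log2, horizontal axis) with its 95% interval for every measured gene of the AP-1, NR4A, EGR and MAP kinase feedback lists. Filled red points pass an adjusted p of 0.05 (10 of the 28 genes), all of them left of 0, while Jund, Nr4a2 and 6 of the 16 MAP kinase feedback genes lie right of 0.

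Taking the 6 activity lists as 1, 60 of 72 genes were measured, 18 fell (30% against 0.171% of all probe sets) and none rose. Of the 60 genes 47 were lower in Nic and 13 higher, and the median was -0.15 beside 0.0082 over all probe sets. The lists were compiled with earlier results of these arrays known, so these shares are a description. On the array level Nic 1 was the highest Nic array for 14 of the 25 probe sets that fell, and Con-Pf 7 was the lowest Con-Pf array for 17. With both left out 36 probe sets were called, and 25 of the 27 were among them. Leaving out Con-Pf 7 alone gave 35 calls and leaving out Nic 7 alone gave 18. Of the arrays with the highest cortical markers, Nic 7 had the lowest mean level of the fallen probe sets (8.86), and Nic 2 stood at 9.10 between the other Nic arrays. The part of the cortical markers in these falls was not tested beyond the covariate fit above. In bulk tissue, fewer cells in which a gene is induced and less mRNA per cell cannot be told apart.

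Upstream sequences of called genes are shown with the letters of known CREB and SRF motifs, whose binding was not measured here. Promoters of 18 of the 24 called genes with a symbol were found among 33469 in RefSeq for GRCr8, the windows running from 250 bases before to 50 bases after the start of transcription. Both strands were searched for the cyclic AMP response element TGACGTCA, its short form TGACG (which the full element contains), the AP-1 site TGANTCA, the EGR sites GCGTGGGCG and GCGGGGGCG, the E-box CACGTG and the CArG box, to which SRF binds. The short form was found for 14 of the 18 genes, among them Nr1d2, which rose, and in 21.2% of all promoters. The CArG box was found for Egr1, Egr2 and Dusp5 and in 1.64% of all, and the full element for Dusp1 and Slc25a25 and in 1.83% of all. The AP-1 site was found for Dusp14 and Gpr3 (7.33% of all), the second EGR site for Nr4a1 (2.73%), the first EGR site for none (0.544%), and the E-box for Cited2, Dusp1 and Ptgs2 (6.42%). Dusp14 has several starts and was counted if any of them had a match. A match is a run of letters and not a measured binding site. The 180 bases before the start are given 5′ to 3′ on the strand of the gene for 5 of these genes, with the short and full cyclic AMP response elements and the CArG boxes in capitals. Egr2 (chr20:21054442-21054621, minus strand) has a CArG box 83 to 74 bases before the start and a short element 66 to 62 bases before it. Dusp5 (chr1:262543594-262543773, plus strand) has adjoining CArG boxes, from 82 to 73 and from 72 to 63, and a short element from 55 to 51. Dusp1 (chr10:17184673-17184852, plus strand) and Slc25a25 (chr3:36116582-36116761, minus strand) hold the full element, at 124 to 117 and at 158 to 151. Nr4a1 (chr7:134259958-134260137, plus strand) holds short elements at 82 to 78 and at 53 to 49.
Egr2: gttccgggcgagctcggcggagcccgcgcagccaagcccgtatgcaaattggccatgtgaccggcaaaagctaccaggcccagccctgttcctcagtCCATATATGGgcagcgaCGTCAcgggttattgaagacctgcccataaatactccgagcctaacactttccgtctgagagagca
Dusp5: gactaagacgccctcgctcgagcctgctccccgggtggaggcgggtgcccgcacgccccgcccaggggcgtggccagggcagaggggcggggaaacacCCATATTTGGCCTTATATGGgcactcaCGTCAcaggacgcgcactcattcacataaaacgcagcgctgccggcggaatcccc
Dusp1: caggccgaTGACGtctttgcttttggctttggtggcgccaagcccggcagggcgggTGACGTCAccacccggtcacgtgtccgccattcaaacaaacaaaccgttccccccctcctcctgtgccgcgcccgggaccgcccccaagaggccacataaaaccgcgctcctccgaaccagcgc
Slc25a25: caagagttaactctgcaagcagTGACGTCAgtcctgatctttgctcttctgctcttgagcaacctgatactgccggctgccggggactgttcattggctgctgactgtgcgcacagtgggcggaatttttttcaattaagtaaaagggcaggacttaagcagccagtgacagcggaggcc
Nr4a1: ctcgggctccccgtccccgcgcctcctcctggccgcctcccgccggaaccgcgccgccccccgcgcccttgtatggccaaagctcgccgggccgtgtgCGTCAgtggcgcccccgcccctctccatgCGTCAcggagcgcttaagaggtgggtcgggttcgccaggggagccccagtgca

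Of the factors and kinases that drive the programme none passed. Of 19 measured genes of CREB, SRF and their kinases none was called, and the median was -0.00032. Creb1 had a difference of 0.050 and Camk4 one of 0.026. Srf itself had the smallest p of the list and a difference of -0.12 (adjusted p = 0.64, limma). Only mRNA was measured, and these proteins are regulated largely by phosphorylation.

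The clock genes form a loop in which Bmal1 and Clock drive the Per, Cry and Nr1d genes, whose products repress them in turn, so that the limbs of the loop peak at opposite times of day. Of 15 measured genes 1 rose, 2 fell and 12 did not pass, and at an unadjusted p under 0.05 7 were higher and 4 lower in Nic. Nr1d2 (REV-ERB-beta, a repressor) ranged from 10.22 to 10.31 in Nic (median 10.26) and from 9.91 to 10.15 in Con-Pf (median 10.02). Every Nic array lay above every Con-Pf array. It rose by 0.24 ± 0.037 (SE), or 1.18-fold (adjusted p = 0.0010, limma), and in Con it ran from 10.19 to 10.43. Nic minus Con was -0.089 (adjusted p = 0.28, limma) and Con-Pf minus Con -0.33 (adjusted p = 1.01e-06, limma). Bmal1, which REV-ERB proteins repress, ranged from 9.14 to 9.49 in Nic (median 9.28), from 9.39 to 9.77 in Con-Pf (median 9.61) and from 8.93 to 9.27 in Con. Most Nic arrays lay below the Con-Pf arrays, with overlap at Nic 6 (9.49). It fell by 0.30 ± 0.062 (SE), or 1.23-fold (adjusted p = 0.033, limma). The call was lost without any 1 of 11 arrays (Nic 1, 2, 3, 4, 5 and 7 and Con-Pf 3, 4, 5, 6 and 9), at an adjusted p of up to 0.14. Nfil3, a repressor that opposes Dbp at shared sites, fell by 0.31 (adjusted p = 0.020, limma) and lost its call without Nic 1 (0.056), Nic 3 (0.073) or Nic 5 (0.071). Nr1d1, the sister gene of Nr1d2, had a difference of 0.26 (adjusted p = 0.060, limma) and passed without Nic 1 (0.022), Con 5 (0.023), Con 8 (0.043), Con-Pf 2 (0.050) or Con-Pf 8 (0.048). Dbp (0.23), Bhlhe41 (0.18), Bhlhe40 (0.18), Per3 (0.15) and Tef (0.095), all driven by Bmal1 and Clock, were higher in Nic without passing. Cry1 (-0.18) and Per1 (-0.25), of which Per1 is also induced by cyclic AMP, were lower without passing. Clock, Npas2, Per2 and Cry2 lay between -0.038 and 0.040. The labels do not give the hour of killing, so its part in these differences was not tested.

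**Figure D4:**
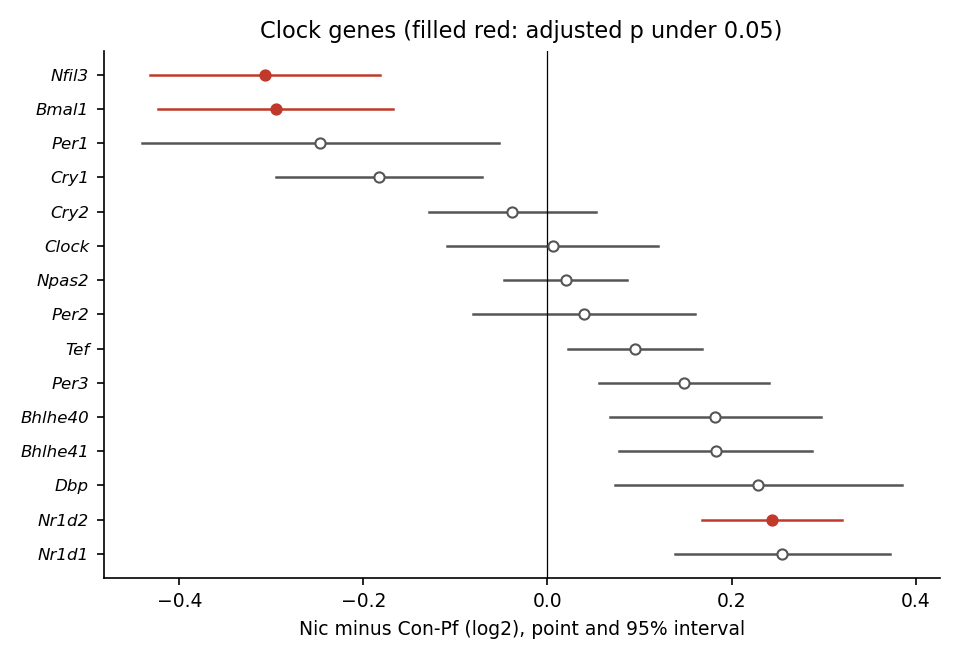
Difference between Nic and Con-Pf (log2, horizontal axis) with its 95% interval for the 15 clock genes measured, ordered by value. Nr1d2 (0.24) and, at the other end, Nfil3 (-0.31) and Bmal1 (-0.30) pass an adjusted p of 0.05 (filled red), and the 12 open points do not.

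Of the 6 called probe sets outside these lists 3 have a name. Pdp1, the phosphatase that activates pyruvate dehydrogenase, ranged from 11.35 to 11.66 in Nic and from 11.67 to 11.99 in Con-Pf. It fell by 0.25 (adjusted p = 0.013, limma), and the call was lost without Nic 7 (0.051). Rsrp1, a serine and arginine rich protein, fell by 0.33 (adjusted p = 0.020, limma), with the call lost without Nic 1 (0.056), Nic 2 (0.052) or Nic 5 (0.072). Pvr, a cell adhesion molecule of the nectin family, fell by 0.28 (adjusted p = 0.030, limma). Its call was lost without any 1 of 10 arrays (Nic 1, 2, 3, 4, 5 and 7 and Con-Pf 2, 4, 5 and 6), at an adjusted p of up to 0.095, and without Con-Pf 9 and 10 together (0.070). The 3 others are the unnamed probe sets 10900592, which fell by 0.31 with no overlap (adjusted p = 0.0090, limma), 10789653, which fell by 0.34 (adjusted p = 0.032, limma), and 10706509, which rose. The last ranged from 8.74 to 8.98 in Nic (median 8.87) and from 8.53 to 8.81 in Con-Pf (median 8.66), and rose by 0.21 (adjusted p = 0.031, limma). The call of 10789653 was lost without any 1 of 12 arrays (Nic 2, 3, 5, 6 and 7 and Con-Pf 1, 2, 5, 6, 8, 9 and 10; up to 0.14) and that of 10706509 without any 1 of 11 (Nic 1, 2, 5, 6 and 7 and Con-Pf 1, 2, 6, 7, 9 and 10; up to 0.13).

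By the thresholds of the study's methods, an unadjusted p under 0.01 and a difference of at least 0.5 on the log2 scale, 15 probe sets differed (0.103%), 12 lower and 3 higher in Nic. Of these 8 were also called at an adjusted p under 0.05. The other 7 were Npas4, Nr4a3, both probe sets annotated as Fosl2 (10940628 being Fosb in the study's naming), Slc17a7, Cck and the unnamed 10845628. Slc17a7, the vesicular glutamate transporter of cortical neurons, was higher in Nic by 1.18 ± 0.38 (SE), or 2.26-fold (adjusted p = 0.58, limma). It ranged from 7.34 to 10.47 in Nic (median 8.82), from 7.19 to 8.55 in Con-Pf (median 7.59) and from 7.50 to 10.25 in Con. Nic 2 (10.47) and Nic 7 (10.12) carried the highest values, Nic 3 (7.34) and Nic 5 (7.50) were as low as Con-Pf, and a Con array reached 10.25. Cck, a neuropeptide abundant in cortex, followed with 0.53 ± 0.17 (SE) (adjusted p = 0.61, limma), its highest arrays again being Nic 2 (9.12) and Nic 7 (8.61). The probe set 10845628 had a difference of 1.14 (adjusted p = 0.78, limma). With the level of the cortical markers, of which Slc17a7 and Cck are members, as a covariate the differences were -0.033 for Slc17a7, -0.015 for Cck and -0.13 for 10845628. Fezf2 (0.13) and Prkcd (0.10), the other members of the list that were measured, did not pass either.

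**Figure D5:**
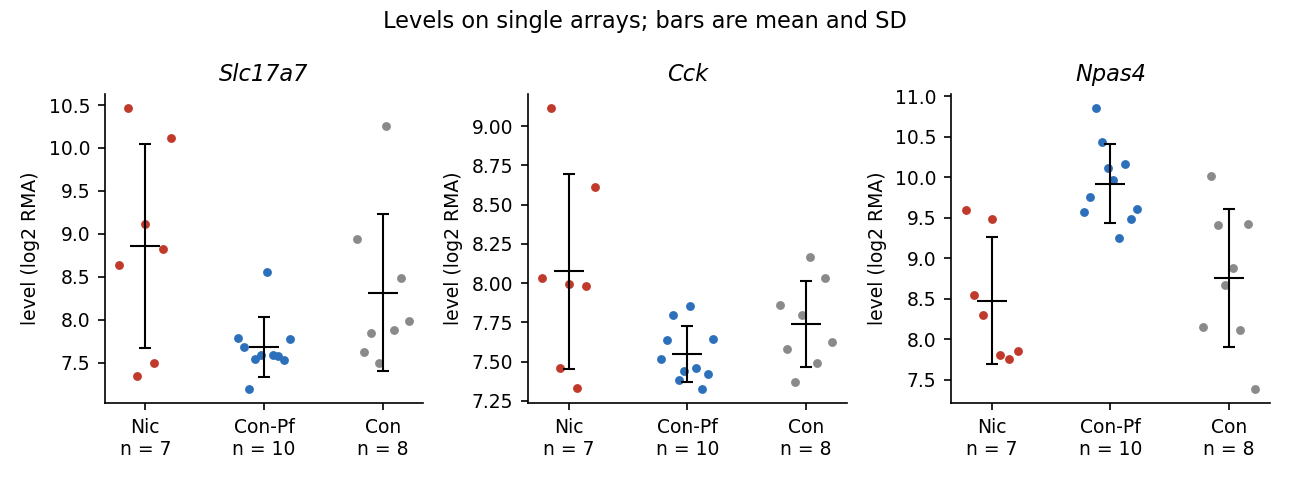
Levels (log2 RMA) of Slc17a7, Cck and Npas4 on every array, with bars for the mean and SD of Nic (red, 7 arrays), Con-Pf (blue, 10) and Con (grey, 8). Slc17a7 spans 7.34 to 10.47 within Nic and Npas4 spans 7.75 to 9.60 in Nic and 7.38 to 10.01 in Con. The differences of 1.18 and -1.44 between Nic and Con-Pf did not pass an adjusted p of 0.05 in the model of the 3 groups.

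Of the genes tested that nicotine might reach directly none passed. Of 27 listed genes of nicotinic and muscarinic receptors and cholinergic neurons 26 have a probe set, and 14 passed the filter on low values. None of these 14 was called, and the listed genes below the filter were not tested. Only mRNA in striatal tissue was measured, not receptor protein on the terminals of dopamine neurons. All 14 were higher in Nic, by 0.00023 to 0.18 with a median of 0.050, where 55.9% of all probe sets were higher. With the cortical markers as a covariate the median of this list was 0.0043. The smallest p was that of Chrna3, the alpha3 subunit, with 0.15 ± 0.066 (SE) (adjusted p = 0.999, limma). It ranged from 6.86 to 7.50 in Nic and from 6.89 to 7.36 in Con-Pf, and these ranges coincide largely. With the cortical markers as a covariate its difference was 0.081. Chrna4 and Chrnb2, whose products form the main high-affinity receptor of the brain, had differences of 0.14 and 0.0070, and Chrna7 one of 0.061. Of the muscarinic receptors Chrm3 had 0.18 and Chrm4, the type of striatonigral neurons, 0.048. Slc18a3, which loads acetylcholine into vesicles, had 0.088.

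None of 14 dopamine signalling genes was called, with differences between -0.058 (Ddc) and 0.049 (Gnb1), and none had an unadjusted p under 0.05. The receptor genes Drd1 and Drd2 had differences of 0.033 ± 0.039 (SE) and 0.012 ± 0.040 (SE). None of 8 striatal neuropeptide genes was called: Penk had -0.022, Pdyn -0.015 and Tac1 -0.033, and the largest was Cartpt with 0.33 ± 0.16 (SE). The kappa opioid receptor gene Oprk1 had 0.21 (adjusted p = 0.59, limma). Of 11 GABA receptor genes Gabra5 (0.17; adjusted p = 0.62, limma) and Gabbr2 (0.18; adjusted p = 0.98, limma) had an unadjusted p under 0.05. With the cortical markers as a covariate Gabbr2 stood at -0.021. None of 17 glutamate receptor genes was called, with a median of 0.029.

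The lists of stress and nutrient genes gave no calls in the model of the 3 groups. Fos and Dusp1, which fell, stand here in the activity lists, although the study's stress response set includes both. Among 13 glucocorticoid receptors and targets Klf9 (0.22; adjusted p = 0.64, limma), Tsc22d3 (0.11; adjusted p = 0.68, limma) and Sgk1 (0.082; adjusted p = 0.999, limma), all induced by corticosterone, were the 3 with an unadjusted p under 0.05. Klf9 passed with array weights (0.022), with replicates 1 to 7 alone (0.049) and with the first principal component as covariate (0.026), and stood at 0.14 with the cortical markers as covariate. Among 17 heat shock and chaperone genes 14 were lower in Nic, with a median of -0.051, and Hspb1 (-0.21) and Cryab (-0.24) had the smallest p (adjusted p = 0.81 and 0.84, limma), Cryab standing at -0.14 with the cortical markers as covariate. Ppp1r15a, which restarts translation after stress, had -0.23 (adjusted p = 0.20, limma), Slc7a11, the cystine transporter, 0.15 (adjusted p = 0.33, limma), and Gadd45g, a growth arrest gene, -0.27 (adjusted p = 0.22, limma). Gadd45g passed in limma on Nic and Con-Pf alone (0.039) and with array weights (0.038). Of 19 genes of insulin, IGF and nutrient sensing Pdk4, the kinase that switches pyruvate dehydrogenase off, had -0.21 (adjusted p = 0.70, limma) and Igf1 0.18 (adjusted p = 0.99, limma). The 69 cytosolic ribosomal, 67 mitochondrial ribosomal, 67 oxidative phosphorylation and 35 proteasome genes had medians of -0.0047, 0.016, 0.018 and 0.015 and no calls. Neither had 16 genes of metallothioneins and antioxidant defence (median 0.0060), 22 adhesion molecules (0.015) or 6 genes of DNA methylation (0.017).

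Markers of other cell types were not called. Medians were -0.044 over 11 oligodendrocyte, -0.0037 over 11 astrocyte, -0.027 over 9 microglia, 0.011 over 17 endothelial and mural, 0.054 over 6 meningeal and 0.13 over 3 red blood cell markers. Choroid plexus markers varied by array, with a median of -0.27 over 3 and Ttr at 6.92 to 11.56 in Nic and 7.14 to 13.69 in Con-Pf. The medium spiny neuron markers had a median of 0.016 over 14, the smallest p being that of Gpr6 (0.15; adjusted p = 0.53, limma).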

How the data were processed

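RNA of 25 rat striata (7 Nic, 10 Con-Pf, 8 Con) was hybridised to rat gene 1.0st arrays (Affymetrix). The authors background-corrected and quantile-normalized the arrays with RMA and deposited log2 values. Expression Console 1.1 (Affymetrix) is named beside RMA in the submitters' processing notes, and the affy package in the methods. All 29214 deposited probe sets were read, and a probe set entered the test where its 25-array mean reached the median of all such means (14607). Limma 3.58.1 fitted 1 linear model with the 3 groups as levels, run under R 4.3.3 with the package data.table at 1.17.8. A probe set was called at a Benjamini-Hochberg adjusted p under 0.05. The study used pairwise Student's t-tests, run here as an alternative. Groups came from the titles. In the probe annotation 15310 probe sets carry 1 symbol, 323 several and 13581 none, and 15279 gene IDs matched RefSeq. In the 35 gene lists a gene was represented by its probe set with the highest mean (8989 genes). Called genes, those past the study's thresholds, the members of the main families, and in each list the 4 smallest p or fewer, are named. The comparison, members and lists were chosen with earlier results of these data known. The array number limits the precision. The steps were tested on simulated data. Alternatives were other tests, filters and normalizations, covariates, a replicate block, other treatments of Con-Pf 9 and 10 and leaving out each array. Figures used Python 3.11.15 and matplotlib 3.10.9. Behaviour, qRT-PCR and DNA methylation were not analysed here.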

Additional observations from a re-analysis of the deposited data

Results flagged for a closer look

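In 11 of 112 groups of arrays, over 56 probe sets of named genes, the highest or lowest array stood apart from the others by Dixon's criterion, where chance alone gives about 5.6. Nic 7 was the lowest Nic array for both probe sets annotated as Fosl2 (8.72 against the next at 9.03, and 8.99 against 9.30). Con-Pf 6 was the highest Con-Pf array for Slc17a7 (8.55 against 7.79) and for the unnamed probe set 10845628 (7.69 against 6.83). Srf was low in Nic 1 (10.50 against 10.58), Chrna3 high in Con-Pf 10 (7.36 against 7.14) and Cryab high in Con-Pf 1 (10.84 against 10.53). Gabra5 was high in Nic 2 (10.76 against 10.58) and in Con-Pf 9 (10.68 against 10.47). Pdk4 was high in Nic 6 (7.51 against 7.28), and Ndufa5, a subunit of respiratory complex I, was low in Con-Pf 10 (9.16 against 9.40).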

How the results depend on the processing

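All 27 called probe sets kept their direction in every alternative run, in 1148 values, but not their call. The main count of 27 became 6 by the methods' t-test without pooling the variances (5 of the 27 kept), 8 with them pooled (7 kept), 55 with array weights (27 kept), 14 with the stricter filter, 5 where Con-Pf 9 and 10 were moved to Con, and 9 with the cortical markers as covariate. It was 24 to 37 with the 2 groups alone, trended moderation, further quantile normalization, centring, Con-Pf 9 and 10 left out, Con 3 and Con 5 left out, the first principal component as covariate, and Con-Pf 7 and Nic 1 left out (chosen after seeing the data), and 20 with no filter. Leaving out 1 array gave 18 to 35 calls. Over replicates 1 to 7 a replicate block gave 15 calls and no block 19, with 14 of the 27 in each; same-numbered arrays did not all deviate together (4 of 7 correlations over 0.1, from -0.21 to 0.34), so the numbers were not taken as pairs. The study's thresholds, 15 in the main fit, gave 9 with the stricter filter, 9 with replicates 1 to 7 and no block, 12 and 13 by the methods' t-test without and with pooling, 22 with no filter, and 11 to 18 with 1 array left out. Of the 56 probe sets followed through the alternatives, 4 turned direction, each with the cortical markers as covariate: Slc17a7 (-0.033), Cck (-0.015), the unnamed 10845628 (-0.13) and Gabbr2 (-0.021), the first 2 being part of that covariate. Signal over background was not analysed here.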
